A study of Mus musculus with 6 samples.

Results

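Immediate early genes are switched on within minutes of a stimulus without new protein synthesis, and Atf3 is a stress and injury transcription factor of the same leucine zipper class as Fos and Jun. The 10 genes described here are Fos, Fosb, Junb, Jund, Egr1, Nr4a1, Ier2, Btg2, Dusp1 and Atf3. They were taken by gene symbol, and all 10 were found among the 24421 genes of each count file and passed the filter on low counts. RNA was measured in mouse sciatic nerve, which runs down the hind limb, in 3 libraries whose genotype label is YAP/TAZ-DBL-cKO and 3 whose label is YAP/TAZ-WT. The groups are called cKO and WT here, and neither DBL nor cKO is spelled out in the labels. YAP and TAZ are transcriptional co-activators of the Hippo pathway. The series' design text names 3 mice per group. The sources used here give neither the driver and extent of the deletion, nor the age of the mice, nor whether nerves were pooled. The comparison made here sets the early genes, which rise readily when tissue is handled, beside Atf3, which is known for its rise in injured nerve, between the genotypes.

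Fos and Fosb form the AP-1 factor with partners of the Jun family, of which Junb and Jund are members. Growth factor signals that run through ERK act on the serum response factor SRF at CArG boxes, and signals through cyclic AMP or calcium act on CREB at cyclic AMP response elements (CRE). Most early genes carry one or both kinds of site, and many of their products, such as the phosphatase Dusp1 and the antiproliferative factor Btg2, damp the signal that induced them. In peripheral nerve, Atf3 is a well-known marker of neurons whose axons were cut, and it is also made by Schwann cells after injury.

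Gene counts per library ranged from 24651262 to 47044158, with every WT library deeper than every cKO library, and the members rest on 51 counts (Fosb in cKO 2) to 9942 counts (Jund in WT 1) in a library. The targeted genes were not lost from the counts over whole genes: Yap1 stood at 102.6 to 108.8 CPM (counts scaled to library size by TMM factors) in cKO and at 120.4 to 123.7 CPM in WT (edgeR adjusted p = 0.145), and Wwtr1, which encodes TAZ, at 337.4 to 372 and 253.8 to 284.2 CPM (edgeR adjusted p = 0.0208, higher in cKO). Counts over a whole gene in mixed tissue need not show a partial deletion, so they do not check the labels, and each direction below is drawn from the labels. Every library held Xist (at least 133.9 CPM) and the Y-linked Ddx3y (at least 8.93 CPM), transcripts of both sexes. A library thus need not stand for a single mouse. Ddx3y read 8.93 to 25.66 CPM in cKO and 20.77 to 47.96 CPM in WT (log2 fold change -1.09 ± 0.39 SE, edgeR adjusted p = 0.121). Xist read 163.8 to 248.8 CPM in cKO and 133.9 to 258 CPM in WT. The part of the mix of sexes in the changes below was not tested. Defining markers of Schwann cells were abundant in all 6 libraries, with Sox10 between 404.6 and 571.2 CPM, and of the 8 neuronal genes Tubb3, Nefl, Prph and Nefm, whose products lie in axons, read 4.48 to 18.9 CPM, while Rbfox3 and Syt1 were at or under 0.353 CPM. In whole tissue, fewer cells of a type and less RNA per cell cannot be told apart.

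The promoters of the 3 early genes that rose, of the gene that fell and of Fos are shown because the members' known control runs through short sites near the start. Sequences are those of RefSeq on GRCm38.p6, 250 bases before to 50 bases after the transcript start, read in the direction of the gene, and capitals mark each match to the CRE core TGACG on either strand (CGTCA where it lies on the opposite strand).
Junb (chr8:84978699-84978998, minus strand): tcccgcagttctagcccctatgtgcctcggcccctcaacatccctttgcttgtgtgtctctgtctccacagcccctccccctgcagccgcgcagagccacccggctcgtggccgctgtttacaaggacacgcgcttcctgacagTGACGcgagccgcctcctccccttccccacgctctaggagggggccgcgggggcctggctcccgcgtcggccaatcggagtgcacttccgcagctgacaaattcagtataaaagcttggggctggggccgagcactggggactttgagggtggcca
Btg2 (chr1:134079106-134079405, minus strand): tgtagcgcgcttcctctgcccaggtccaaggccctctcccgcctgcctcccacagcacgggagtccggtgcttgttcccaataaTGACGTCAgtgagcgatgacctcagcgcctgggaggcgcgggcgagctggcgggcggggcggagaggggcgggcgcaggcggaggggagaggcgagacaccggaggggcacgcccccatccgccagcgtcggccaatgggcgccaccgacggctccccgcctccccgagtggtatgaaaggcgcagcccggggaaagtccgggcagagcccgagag
Dusp1 (chr17:26508423-26508722, minus strand): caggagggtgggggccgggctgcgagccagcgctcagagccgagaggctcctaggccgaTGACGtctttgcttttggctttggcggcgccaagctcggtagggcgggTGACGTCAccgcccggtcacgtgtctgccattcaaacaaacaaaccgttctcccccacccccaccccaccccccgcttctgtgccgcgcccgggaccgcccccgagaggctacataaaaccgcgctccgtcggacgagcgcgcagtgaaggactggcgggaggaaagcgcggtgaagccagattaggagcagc
Fos (chr12:85473640-85473939, plus strand): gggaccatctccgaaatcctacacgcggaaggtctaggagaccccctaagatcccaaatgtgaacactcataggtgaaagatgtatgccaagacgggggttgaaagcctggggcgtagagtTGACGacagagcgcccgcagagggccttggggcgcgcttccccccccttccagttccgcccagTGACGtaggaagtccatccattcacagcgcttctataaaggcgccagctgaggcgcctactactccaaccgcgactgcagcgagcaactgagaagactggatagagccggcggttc
Atf3 (chr1:191183284-191183583, minus strand): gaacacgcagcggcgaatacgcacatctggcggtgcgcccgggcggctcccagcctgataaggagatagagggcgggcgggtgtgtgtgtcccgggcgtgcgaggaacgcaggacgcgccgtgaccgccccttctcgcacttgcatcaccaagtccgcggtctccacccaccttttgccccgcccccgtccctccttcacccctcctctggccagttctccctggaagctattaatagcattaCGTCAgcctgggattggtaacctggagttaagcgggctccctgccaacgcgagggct

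Windows of 8 of the 10 members were searched. Member windows on chromosome 18, where Egr1 lies, were left out by choice, and Ier2 had none in the RefSeq table used. The CRE core was found in 7 of those 8 windows, against 20.8% of all 32851 windows, and windows with at least 2 places of it made up 5.01% of all. Nr4a1 had 4 places, Dusp1 3, Fos and Btg2 2 each, Fosb, Junb and Atf3 1 each, and Jund 0. In Btg2 and Dusp1 the core is part of the full palindrome TGACGTCA, which 1.79% of all windows hold and which counts as 2 places of the core because it reads the same on both strands. The TATA box TATAAA lay 33 bases before the RefSeq start of Fos and at the RefSeq start itself of Junb, against 13.6% of all windows with a match. In GENCODE, Junb begins downstream of that RefSeq start. The ETS core CCGGAA was found in Nr4a1 alone among the 8 (14.9% of all windows), and the AP-1 site TGANTCA (7.81%) and the CArG box (1.63%) in none of the 8 windows. Both strands were searched for each motif. Sites more than 250 bases before the start were not searched, so a motif absent from a window may still lie elsewhere at the gene. Atf3, which fell, holds the CRE core, as do Junb, Btg2 and Dusp1, which rose. In the GENCODE annotation Atf3, Dusp1 and Nr4a1 reach upstream of their RefSeq windows, and Jund begins downstream of its own, so that other starts of these genes were not searched.

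**Figure D1:**
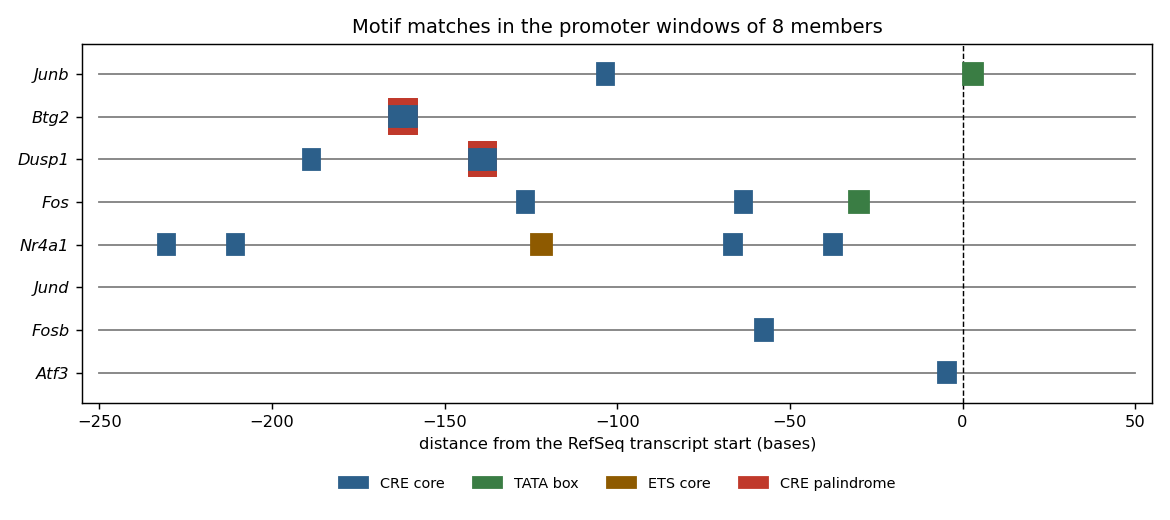
Motif matches in the promoter windows of 8 members. The horizontal axis is the distance in bases from the RefSeq transcript start (dashed line), each grey line is the window of 1 gene, and coloured blocks are matches on either strand. The CRE core is present in 7 of the 8 windows, and the full palindrome in Btg2 and Dusp1.

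Atf3 was the only one of the 10 genes that fell. Atf3 (ENSMUSG00000026628.13; mm10 chromosome 1, 191170296 to 191218039, minus strand), which acts mostly as a repressor when it pairs with itself, read 8.41, 11.68 and 11.56 CPM in cKO 1, 2 and 3, against 21.70, 19.12 and 22.13 CPM in WT 1, 2 and 3. The highest cKO library thus lay well below the lowest WT library. Atf3 fell 1.99-fold (log2 fold change -0.99 ± 0.16 SE, n = 3 libraries each; edgeR quasi-likelihood adjusted p = 0.00484). Atf3 was the only member called lower, against 6.17% of all 14789 tested genes, and groups that do not overlap with cKO lower were found for 15.8% of them. Leaving out each of the 6 libraries in turn kept the call (log2 fold change -0.85 to -1.07, edgeR adjusted p = 0.0061 to 0.0243). It was lost with the summed skeletal muscle level as a covariate, where the log2 fold change was -1.39 and the edgeR adjusted p 0.0929.

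Of the 9 early genes, 3 rose and 0 fell, against 4.77% of all tested genes called higher and 10.9% called either way. The number that rose was 1 without cKO 1, 0 without cKO 2, cKO 3 or WT 2, and 2 without WT 1 or WT 3. It was also 0 with the muscle covariate and 0 with the replicate number as a block, although no label says that these numbers pair mice. For 5 of the 9 every cKO library lay above every WT library, against 15.3% of all tested genes, and 8 of the 9 had a log2 fold change above 0. Their median log2 fold change was 0.39, and that of all tested genes 0.02. The largest upward log2 fold change among them was 0.65. The members and the comparison were chosen with results of these data known, so these counts are a description.

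**Figure D2:**
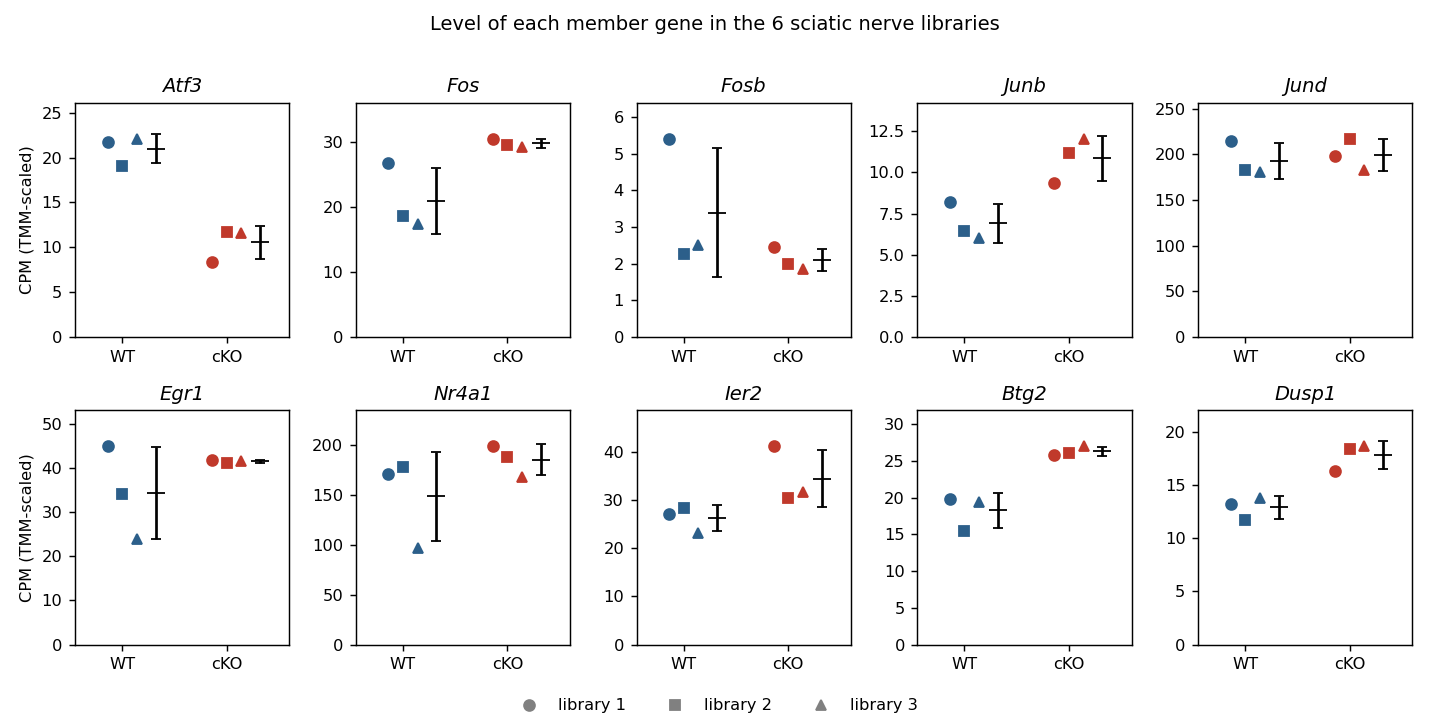
Level of each member in the 6 libraries. The vertical axes are TMM-scaled CPM from 0, blue marks are WT and red marks cKO libraries, marker shapes give the library number, and black bars are the mean ± SD of 3 libraries. Atf3 is lower in every cKO library, while Fos, Junb, Ier2, Btg2 and Dusp1 are higher in every cKO library than in any WT library.

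Among the AP-1 subunits, Junb (ENSMUSG00000052837.6; chromosome 8, 84974484 to 84978718, minus strand), a Jun family member that often restrains proliferation, rose 1.57-fold. It read 9.35, 11.18 and 12.06 CPM in cKO 1, 2 and 3, against 8.22, 6.45 and 6.02 CPM in WT 1, 2 and 3, and its log2 fold change was 0.65 ± 0.18 (SE; edgeR adjusted p = 0.0486). The groups were separate but close, with WT 1 just under cKO 1. The call was lost without cKO 2, cKO 3, WT 2 or WT 3 (edgeR adjusted p = 0.133, 0.194, 0.155 and 0.0819). It was also lost with no filter on low counts (edgeR adjusted p = 0.0507), with the replicate block and with the muscle covariate (log2 fold change 0.39, edgeR adjusted p = 0.825). With limma-voom the adjusted p was 0.05. Of the 9 alternatives that used all libraries, 5 kept the call.

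Fos (ENSMUSG00000021250.13; chromosome 12, 85473890 to 85477273, plus strand), the founding AP-1 subunit, did not pass the test, although its groups did not overlap. It read 30.55, 29.60 and 29.27 CPM in cKO 1, 2 and 3, against 26.81, 18.65 and 17.39 CPM in WT 1, 2 and 3. The cKO libraries were nearly equal and WT 1 lay close under them. On the log2 scale the difference was 0.51 ± 0.16 (edgeR adjusted p = 0.0846). Without WT 1 it was 0.69 (edgeR adjusted p = 0.0137, with 3% of all genes called higher). Fos was also called higher by DESeq2 (adjusted p = 0.035, with 6.74% of all genes called higher) and with total counts only (edgeR adjusted p = 0.0481, with 8.61%).

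Fosb (ENSMUSG00000003545.3; chromosome 7, 19302696 to 19310051, minus strand), the close relative of Fos with the lowest counts of the 10, had 2.44, 1.99 and 1.85 CPM in cKO 1, 2 and 3 and 5.41, 2.25 and 2.52 CPM in WT 1, 2 and 3. Here 1 library decided the value, since WT 1 was far above every other library and the rest overlapped. The difference of -0.70 ± 0.36 on the log2 scale (edgeR adjusted p = 0.284) became -0.22 without WT 1 (edgeR adjusted p = 0.776). Jund (ENSMUSG00000071076.6; chromosome 8, 70698949 to 70700616, plus strand), the Jun family member that is made steadily in most cells, ranged from 182.4 to 217.3 CPM in cKO and from 180.2 to 215.1 CPM in WT. These ranges coincide, and the difference was 0.05 ± 0.11 on the log2 scale (edgeR adjusted p = 0.848), turning slightly negative without cKO 2 (-0.02), without WT 3 (-0.02) and with the muscle covariate (-0.16).

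Of the early genes outside the Fos, Jun, Egr and Nr4a families, Btg2 and Dusp1 rose and Ier2 did not pass. Btg2 (ENSMUSG00000020423.6; chromosome 1, 134075170 to 134079120, minus strand), an antiproliferative cofactor and a known p53 target, read 25.87, 26.10 and 27.04 CPM in cKO 1, 2 and 3, against 19.88, 15.52 and 19.43 CPM in WT 1, 2 and 3. All cKO values lay together above the WT values. Btg2 rose 1.44-fold (0.53 ± 0.12 on the log2 scale, edgeR adjusted p = 0.0265). The call was lost without cKO 1, cKO 2, cKO 3, WT 1 or WT 2 (edgeR adjusted p = 0.0578, 0.0763, 0.117, 0.0543 and 0.0913). It was also lost with the replicate block and with the muscle covariate (log2 fold change 0.18, edgeR adjusted p = 0.887).

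Dusp1 (ENSMUSG00000024190.7; chromosome 17, 26505590 to 26562128, minus strand), a phosphatase that switches off the kinases p38, JNK and ERK, read 16.28, 18.42 and 18.65 CPM in cKO 1, 2 and 3, against 13.24, 11.70 and 13.76 CPM in WT 1, 2 and 3. The groups were separate, with cKO 1 nearest to WT. Dusp1 rose 1.38-fold (0.46 ± 0.13 on the log2 scale, edgeR adjusted p = 0.0479). The call was lost without cKO 1, cKO 2, cKO 3, WT 1 or WT 2 (edgeR adjusted p = 0.0519, 0.142, 0.184, 0.128 and 0.171). It was also lost with DESeq2 size factors (edgeR adjusted p = 0.0509), with no filter on low counts (0.0602), with the replicate block and with the muscle covariate (log2 fold change 0.17, edgeR adjusted p = 0.902). Ier2 (ENSMUSG00000053560.4; chromosome 8, 84661331 to 84662852, minus strand), an early gene product found in the nucleus, read 41.25, 30.42 and 31.62 CPM in cKO 1, 2 and 3, against 27.22, 28.35 and 23.24 CPM in WT 1, 2 and 3. Its groups did not overlap, but its log2 fold change of 0.39 ± 0.14 did not pass (edgeR adjusted p = 0.121).

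The remaining pair of transcription factors overlapped between the groups. Egr1 (ENSMUSG00000038418.7; chromosome 18, 34859823 to 34864984, plus strand), a zinc finger factor of the ERK and SRF response, read 41.73, 41.13 and 41.55 CPM in cKO 1, 2 and 3, against 44.92, 34.00 and 23.94 CPM in WT 1, 2 and 3. Nr4a1 (ENSMUSG00000023034.7; chromosome 15, 101254269 to 101274795, plus strand), an orphan nuclear receptor, read 199.1, 188.3 and 168.4 CPM in cKO 1, 2 and 3, against 170.9, 178.3 and 97.05 CPM in WT 1, 2 and 3. In both genes WT 3 was the lowest library, and in Egr1 WT 1 was the highest of all 6. The log2 fold changes were 0.27 ± 0.19 for Egr1 (edgeR adjusted p = 0.437) and 0.32 ± 0.20 for Nr4a1 (edgeR adjusted p = 0.391), and they became 0.05 and 0.06 without WT 3 (edgeR adjusted p = 0.847 and 0.743).

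**Figure D3:**
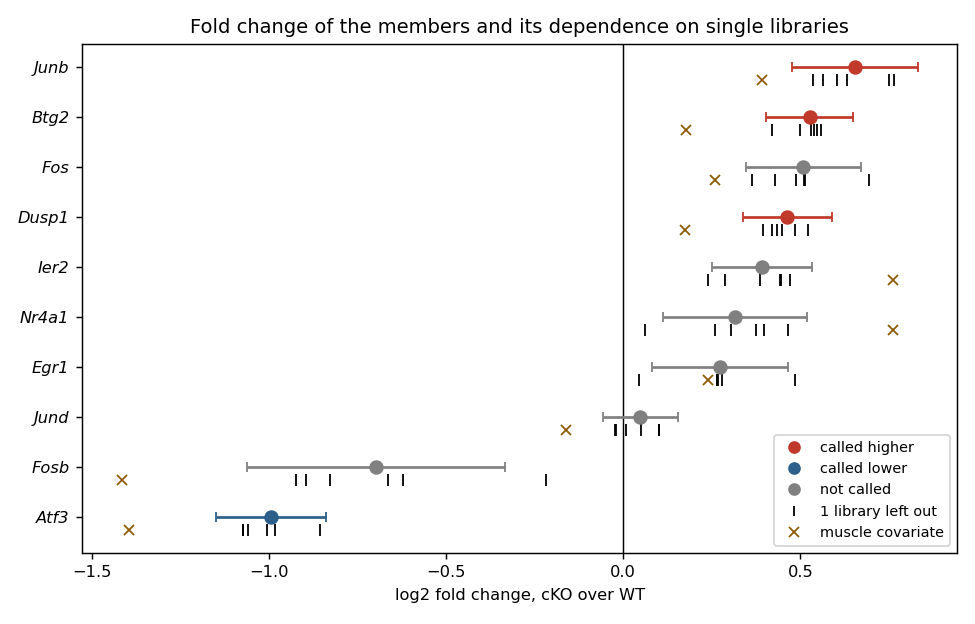
Log2 fold change of each member, cKO over WT, from the edgeR fit of all 6 libraries. Circles with bars are the estimate ± SE, red called higher, blue called lower and grey not called; ticks are the 6 fits that left out 1 library and crosses the fit with the muscle level as a covariate. Atf3 stays at or below -0.85 in every fit, and Egr1 and Nr4a1 come close to 0 in 1 of the fits.

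The spread within WT differed between members. WT 1 was the highest WT library for 6 of the 10 members and WT 3 the lowest for 6. The coefficient of variation was larger in WT than in cKO for 8 of the 10 members, against 53% of all tested genes, with 24.4% against 2.22% for Fos and 30.6% against 0.744% for Egr1. For Atf3 and Ier2 the order was the reverse, with 7.74% and 10.2% in WT and 17.6% and 17.2% in cKO. Dusp1 (8.31%) and Jund (10.2%) also varied little within WT. The libraries differ in other ways too. WT 3 had a summed level of 11 fat markers of 437 CPM, against 103.4 and 95.6 CPM in WT 1 and WT 2 and 227.1 to 432.9 CPM in cKO, and the part of this in the early genes was not tested.

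The difference between Atf3 and the early genes can be read within each library, where scaling to library size cancels. Log2 CPM of Atf3 minus the mean log2 CPM of the 9 early genes was -1.84, -1.33 and -1.31 in cKO 1, 2 and 3 and -0.41, -0.24 and 0.10 in WT 1, 2 and 3. The groups did not overlap, and their means differed by -1.31 on the log2 scale. The early genes alone contributed 0.30 of this, with a mean log2 CPM of 4.88 ± 0.03 (SD) in cKO and 4.57 ± 0.25 in WT. Their mean was 4.909, 4.875 and 4.844 in cKO 1, 2 and 3 and 4.854, 4.499 and 4.369 in WT 1, 2 and 3. On this mean the groups overlapped, with WT 1 above cKO 3. Ratios of single early genes to Atf3 did not overlap between the groups. Fos over Atf3 was 2.53 to 3.63 in cKO and 0.786 to 1.24 in WT, and Dusp1 over Atf3 1.58 to 1.94 and 0.61 to 0.622. The ratio of Btg2 to Atf3 went from 0.812 to 0.916 in WT to 2.23 to 3.08 in cKO, and that of Junb to Atf3 from 0.272 to 0.379 to 0.957 to 1.11. Each of these ratios gave an exact two-sided permutation p of 0.1 (0.1 after adjustment over the 8 ratios computed), the smallest that 3 libraries against 3 allow. Atf3 was lower, and Fos, Dusp1, Btg2 and Junb higher, in every cKO library than in any WT library. The split of these ratios and their p thus follow from the single genes and add no support. The pairs were chosen after the values were seen.

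Per kilobase of annotated exon, Jund was the most abundant member, with 115.5 ± 11.7 CPM per kb (SD, n = 3) in WT and 119.4 ± 10.5 in cKO. Nr4a1 followed with 42.4 ± 12.8 and 52.8 ± 4.44 CPM per kb, then Ier2 with 17.3 ± 1.77 and 22.6 ± 3.9 CPM per kb. Atf3 stood in place 4 in WT (9.74 ± 0.754 CPM per kb), where its libraries overlapped those of Fos (8.91 ± 2.17) and Egr1 (7.65 ± 2.34). In cKO Atf3 stood in place 8 (4.9 ± 0.86 CPM per kb), level with Junb (4.72 ± 0.601) and Dusp1 (5.37 ± 0.395). Fosb was the lowest in both groups, with 0.543 ± 0.281 CPM per kb in WT and 0.335 ± 0.0495 in cKO. The length used is the union of all annotated exons of a gene, those of rarely used transcripts included.

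Of the relatives of Nr4a1 and Egr1, Nr4a2 and Egr2 fell. In the Nr4a family, Nr4a2, the orphan receptor Nurr1, fell 1.75-fold, from 39.01, 37.40 and 40.32 CPM in WT 1, 2 and 3 to 18.36, 24.58 and 23.74 CPM in cKO 1, 2 and 3 (log2 -0.81 ± 0.13, edgeR adjusted p = 0.00475). Nr4a1 over Nr4a2 was 7.09 to 10.84 in cKO and 2.41 to 4.77 in WT, while Nr4a3 was low, at 0.754 to 1.44 and 0.75 to 1.99 CPM, with a log2 fold change of -0.43 ± 0.44. In the Egr family, Egr2, which drives myelin genes in Schwann cells and stands among their markers below, fell 1.44-fold from 218.2, 251.0 and 223.3 CPM in WT 1, 2 and 3 to 159.6, 164.1 and 157.4 CPM in cKO 1, 2 and 3 (edgeR adjusted p = 0.00628), and Egr1 over Egr2 was 0.251 to 0.264 in cKO and 0.107 to 0.206 in WT. Egr3, an early gene of the same family, differed by 0.48 ± 0.24 on the log2 scale without passing (edgeR adjusted p = 0.265), with WT 3 at 30.24 CPM against 63.16 to 76.50 CPM in the other libraries. Nr4a2 and Egr2 kept their calls whichever library was left out, but not with the muscle covariate (log2 -1.08 and -0.35, edgeR adjusted p = 0.134 and 0.64).

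Jun, the AP-1 subunit that Schwann cells need for their repair state after injury, read 90.82, 94.18 and 97.89 CPM in cKO 1, 2 and 3, against 89.34, 62.37 and 88.28 CPM in WT 1, 2 and 3. The groups did not overlap but were nearly level apart from WT 2, and the difference of 0.24 ± 0.13 (log2) did not pass (edgeR adjusted p = 0.328). Junb over Jund was 0.0473 to 0.0661 in cKO and 0.0334 to 0.0382 in WT, and Fos over Fosb 12.5 to 15.8 and 4.96 to 8.29. These 4 ratios between relatives each had an exact two-sided permutation p of 0.1, the smallest possible. All 8 pairs were chosen after the values were seen. Junb, Fos, Nr4a2 and Egr2 did not overlap between the groups as single genes, so these ratios and their p add no support. Among relatives of Dusp1 and Ier2, the phosphatase Dusp2 (log2 0.66 ± 0.29) and Ier3 (0.54 ± 0.20) were higher in every cKO library without passing (edgeR adjusted p = 0.195 and 0.14), and Dusp5 (0.18 ± 0.53) and Ier5 (-0.09 ± 0.11) overlapped. Fosl2, a longer-lived Fos relative, had a log2 fold change of 0.01 ± 0.13. Of 13 tested partners and competitors of AP-1, edgeR called 0, with a median log2 fold change of 0.22. The unadjusted edgeR p was under 0.05 for 3 of the 13 (Mafk and Batf2 among them), against 3641 of all 14789 tested genes.

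**Figure D4:**
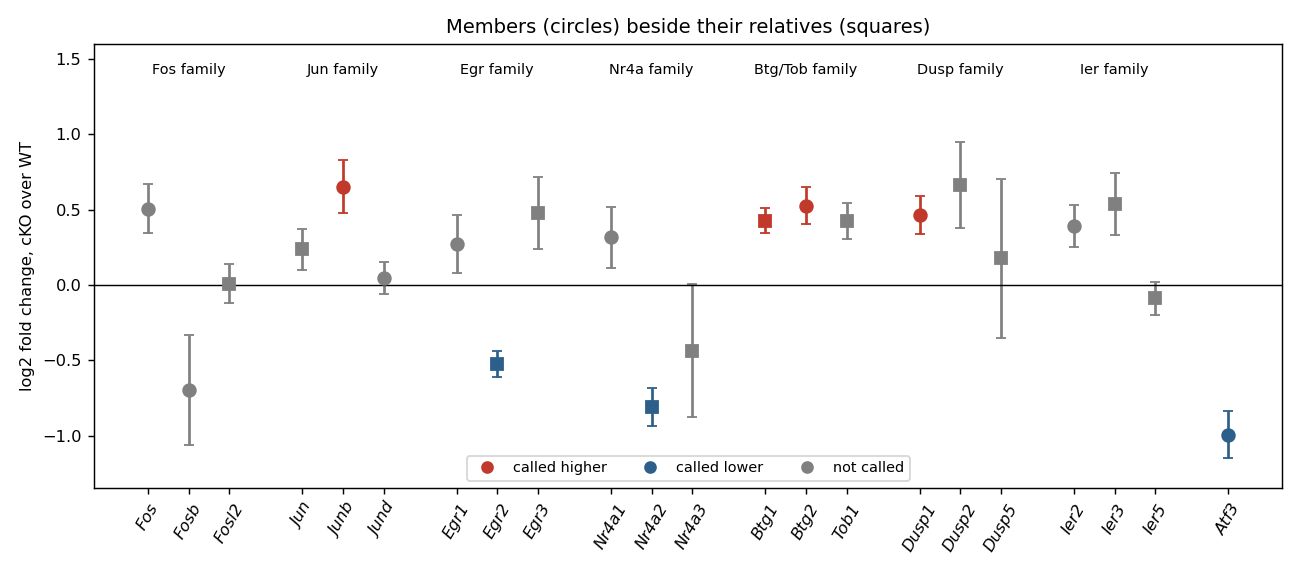
Log2 fold change ± SE, cKO over WT, of members (circles) beside relatives that are not members (squares). Red marks genes called higher, blue called lower and grey not called. Egr2 and Nr4a2 were called lower, with Nr4a3 also below 0 and Egr1, Egr3 and Nr4a1 above 0, none of them called. Atf3 stands at the lower end.

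Of 56 other tested early genes, 4 rose and 2 fell, against 4.77% of all 14789 tested genes called higher and 6.17% called lower. Of the 56, 45 lay above 0, as did 7949 of the 14789. Their median log2 fold change was 0.22, and that of all tested genes 0.02. The shares of called genes also stand beside the counts of the other lists in this report. Cebpb, a leucine zipper factor of inflammation and fat cell differentiation, rose 1.69-fold, from 9.05 ± 1.47 to 15.3 ± 0.633 CPM (edgeR adjusted p = 0.014). Btg1, the relative of Btg2, rose 1.34-fold from 129.4 ± 5.37 to 173.9 ± 9.28 CPM. Plk2, a stress-responsive kinase, also rose 1.34-fold, and Gem, a small GTPase that acts on calcium channels and the cytoskeleton, 1.62-fold. The call of Cebpb was lost without cKO 2 or cKO 3, those of Btg1 and Plk2 without cKO 3, WT 1 or WT 2, and that of Gem when any library but WT 3 was left out. The 2 that fell were Nr4a2 and Egr2. Klf6, a zinc finger factor induced by injury, was lower in every cKO library without passing (log2 -0.41 ± 0.12, edgeR adjusted p = 0.0678), and Sik1, a kinase induced by cyclic AMP, was higher in every cKO library without passing (0.46 ± 0.13, adjusted p = 0.0532). Tob1, another Btg relative (0.42 ± 0.12), Mafk (0.35 ± 0.10), Klf2 (0.46 ± 0.15) and Myc (0.53 ± 0.17) likewise did not pass. The count called higher was 3, 2, 0, 1 and 1 without cKO 1, cKO 2, cKO 3, WT 1 and WT 2. It was 13 without WT 3, where 7.19% of all genes were called higher. With total counts only, which moves the median of all genes by 0.12, 4 of the 22 transcription factors and 7 of the 34 other products were called higher. In that setting 8.61% of all genes were called higher. With the muscle covariate 0 of these early genes were called in either direction. Leaving out WT 3 also raised the number of fat markers called higher, from 0 of 10 to 10 of 11.

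Several early genes of strong stimulation were hardly detected. Fosl1, Egr4, Npas4, Ptgs2, Areg, Ereg and Il6 were all at or under 0.283 CPM in every library, and Egr4 had 0 counts in all 6, which allows up to 0.122 CPM in the shallowest library and covers counting error only.

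Genes that follow sustained ERK signalling gave 2 of 13 called higher and 0 lower, with 11 above 0 and a median log2 fold change of 0.24. The ETS factor Etv5 rose 1.49-fold, from 52.34, 49.75 and 37.32 CPM in WT 1, 2 and 3 to 66.31, 71.20 and 69.81 CPM in cKO 1, 2 and 3 (edgeR adjusted p = 0.0207). Its relative Etv1 rose 1.36-fold (edgeR adjusted p = 0.0454), and Etv4 (log2 0.52 ± 0.15, adjusted p = 0.0526) and Dusp6, a phosphatase that acts on ERK (0.37 ± 0.11, adjusted p = 0.0698), did not pass. The count called higher was 0 without cKO 2 or cKO 3, 1 without WT 1 or WT 2, and 0 with the muscle covariate. Of 19 regulators that act on early gene promoters, 0 rose and 2 fell. Crtc3, a coactivator of CREB, fell 1.45-fold from 52.3 ± 3.84 to 36 ± 6.21 CPM, and Rps6ka5, the kinase MSK1 that phosphorylates CREB and histone H3 at early genes, fell 1.87-fold from 10.5 ± 1.86 to 5.62 ± 0.948 CPM. Both calls depended on single libraries: Crtc3 lost its call without cKO 3 or WT 2 and Rps6ka5 without cKO 1, cKO 2, cKO 3 or WT 2. Srf (log2 0.05 ± 0.11) and Creb1 (-0.11 ± 0.08) did not pass.

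**Figure D5:**
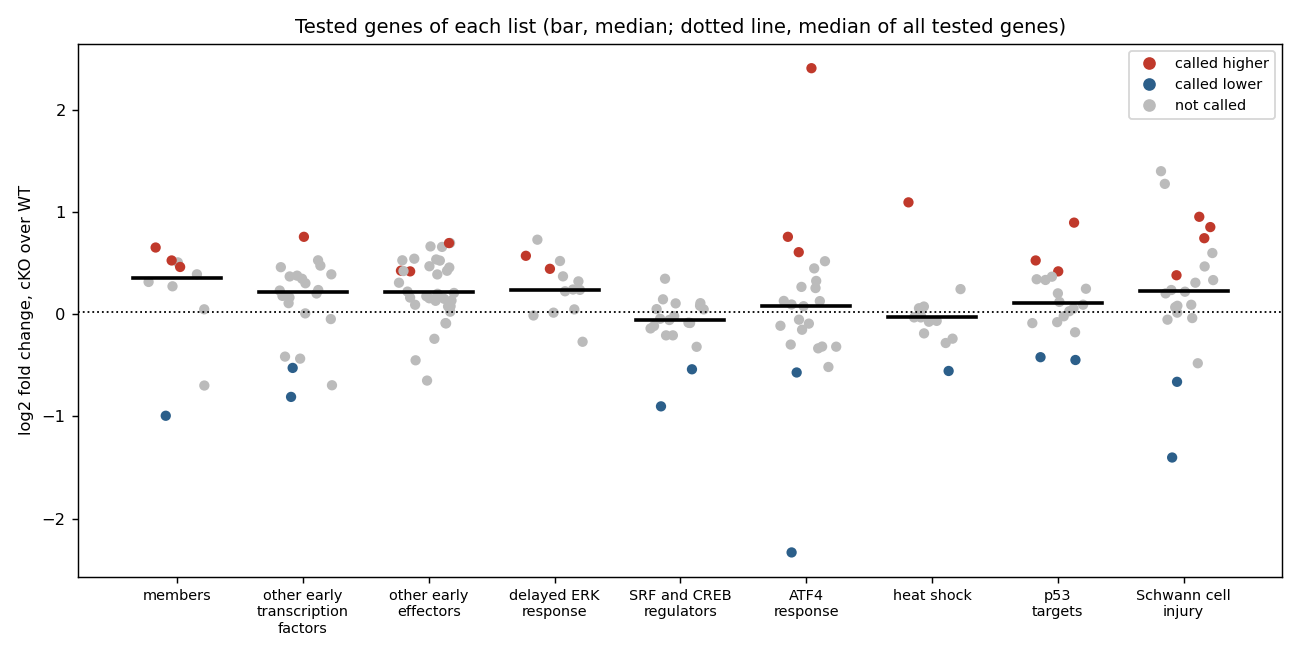
Log2 fold change, cKO over WT, of the tested genes of each list. Points are genes (red called higher, blue called lower, grey not called), bars are list medians and the dotted line is the median of all tested genes. The medians of the members (0.35) and of both lists of other early genes (0.22 each) lie above that of all genes (0.02), with single genes such as Atf3, Nr4a2 and Egr2 below 0. Those of the delayed ERK (0.24), Schwann cell injury (0.23), p53 (0.11) and ATF4 (0.08) lists also lie above it. Those of the SRF and CREB regulators (-0.06) and heat shock genes (-0.03) lie below it.

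Of 22 tested genes of the Schwann cell injury response, 4 rose and 2 fell. Tnc, a matrix protein, rose 1.94-fold, and Sox2, a factor of immature Schwann cells, 1.68-fold, while the cell cycle inhibitor gene Cdkn2a rose 1.81-fold and the phagocytic receptor Megf10 1.3-fold. Nrcam, a cell adhesion molecule, and Ngfr, the low-affinity neurotrophin receptor, fell 2.64-fold and 1.58-fold. Other injury genes that Schwann cells switch on were low, with Shh and Olig1 at or under 0.151 CPM and Gfap and Gdnf at or under 0.633 CPM in every library. The number called higher was 1 without cKO 2 or cKO 3, 2 without WT 1 and 0 with the muscle covariate, where Nrcam kept its call.

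Levels of other cell types moved with the groups. The summed level of 23 skeletal muscle genes was 4579 to 10210 CPM in cKO and 469.8 to 1766 CPM in WT, that of 8 T and B cell genes 8.73 to 18.3 and 2.19 to 3.28 CPM, and that of 5 mast cell genes 113.9 to 229.6 and 77.9 to 100.4 CPM. Of the tested genes of these lists, 20 of 23, 3 of 6 and 2 of 5 were called higher. With 1 library left out the muscle count was 14 to 20 and the T and B cell count 2 to 4, and the mast cell count was 0 without cKO 3 or WT 1, 1 without cKO 1 or WT 2 and 4 without cKO 2. None of the 23 muscle genes was at 0 in any library, while Cd8a had no count in 3 libraries and Cd3e in 1. The 10 Schwann cell markers, most of them myelin genes, summed to 17650 to 28500 CPM in cKO and 64770 to 91190 CPM in WT, with 6 of 10 called lower. The sums of 10 macrophage genes (618.6 to 647.7 and 499 to 680.4 CPM), 7 fibroblast genes, 7 endothelial genes, 8 mural cell genes, 5 perineurial genes, 11 fat genes and 8 neuronal genes overlapped between the groups, while that of 7 neutrophil genes did not (22.8 to 35.5 and 8.92 to 22.2 CPM). Their part in the changes of Atf3 and the early genes was not tested beyond the muscle covariate, under which the median SE of all genes was 0.291 in place of 0.142.

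By the root mean square difference of centred log2 CPM over the 6 libraries, the genes most like Fos among 11226 compared included Zfp692 (0.0691), Prcp (0.0868), Fbln1 (0.0895) and Cacna1g (0.103). Those most like Atf3 were Tmem245 (0.0707), Carns1 (0.0812), Ppp1r26 (0.0889), Kazn (0.0895) and Fasn (0.0905). All 5 genes nearest to Atf3 had cKO 1 as their lowest library. They were picked for likeness to Atf3, itself lowest in cKO 1, so this and their lower cKO levels follow from the choice. Fasn, the fatty acid synthase, read 192.3, 262.4 and 223.9 CPM in cKO 1, 2 and 3, against 426.7, 405.3 and 450 CPM in WT 1, 2 and 3.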

How the data were processed

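RNA-seq of 6 mouse sciatic nerve libraries was used, 3 labelled cKO and 3 labelled WT. Each deposited file gives the raw count of reads for every gene symbol in 1 library, with no normalization by the authors. The tools named in the submitters' processing notes are TopHat2 2.0.13 and HTSeq with no version, and the build is mm10. The sources used here give neither annotation nor strand setting for HTSeq, so reads of overlapping or antisense genes cannot be told apart. HTSeq's closing lines stayed out of library sizes and tests: reads of no gene made up 12.07% to 14.26% of a file (every cKO library above every WT library) and ambiguous reads 1.635% to 2.818%.

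edgeR 4.0.16 in R 4.3.3 was run on all 6 libraries: filterByExpr with a minimum count of 10 (14789 genes kept), TMM factors, and the quasi-likelihood F test with group as the only term. Calls use a Benjamini-Hochberg adjusted p under 0.05 over all tested genes. Each SE was taken as |log2 fold change| over the root of F. The design text counts 3 mice a group, but no label ties a library to a mouse, so p-values measure the spread between these libraries, which may be partly technical. Alternatives were other scalings, DESeq2 1.42.0, limma-voom (limma 3.58.1), other filters, a replicate block, a muscle covariate (log2 summed CPM of 23 muscle genes) and leaving out each library.

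The members and lists were chosen with earlier results of these data known. Named genes are the members, up to 6 genes of each early, regulator, injury and stress list in order of p with any called, up to 3 of each cell type list by level, and for Fos and Atf3 the 5 genes nearest in centred log2 CPM among those with a mean of at least 5 CPM. Genes outside these rules, such as relatives shown for comparison, defining markers, genes near 0 and those of the ratios, were chosen after their values were seen. Not every gene under these rules is reported here. Positions, exon lengths and gene IDs come from GENCODE M21 (GRCm38, the assembly of mm10), and promoters from RefSeq.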

Additional observations from a re-analysis of the deposited data

How the results depend on the processing

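Under the 15 alternatives, the log2 fold changes of 9 of the 10 members kept their sign. Jund changed sign in 3 (-0.16 with the muscle covariate, -0.02 without cKO 2 and -0.02 without WT 3). Atf3 was called in 14 of the 15, and with the muscle covariate it had a log2 fold change of -1.39 without a call. The fits that left out 1 library gave Atf3 -1.07 to -0.85 and Jund -0.0234 to 0.102. The members called higher were 3 with all libraries, 4 with total counts only, 4 with DESeq2, 2 with DESeq2 size factors, 1 with no filter on low counts (3.96% of all genes), 0 with the replicate block (3.12%), 0 with the muscle covariate (0.0473%), and 0 to 2 with 1 library left out. The members called lower were 1, and 0 with the muscle covariate.

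Over all tested genes, 706 were called higher and 912 lower. The counts were 1273 and 606 with total counts only, 461 higher with the replicate block, 7 and 72 with the muscle covariate, and 276 to 1075 higher and 459 to 1120 lower with 1 library left out. No label says that equal replicate numbers pair mice. Deviations from the group means had correlations of -0.207, -0.122 and 0.0724 between libraries of equal number. With 3 libraries a group these values are tied to each other, so they cannot settle whether the numbers pair libraries. With the replicate block Junb, Btg2 and Dusp1 lost their calls (edgeR adjusted p = 0.121, 0.0564 and 0.116) and Atf3 kept its own (0.0164). The cause was not tested. With 3 libraries a group, single genes of modest change lie close to the threshold.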

Other observations

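Genes of the ATF4 pathway, which can induce Atf3 in stressed cells, split. Of 23 tested, 3 rose and 2 fell, with a median log2 fold change of 0.08. Ppp1r15a, the GADD34 phosphatase subunit, fell 1.48-fold, from 148.8, 163.2 and 150.7 CPM in WT 1, 2 and 3 to 96.43, 112.9 and 102.4 CPM in cKO 1, 2 and 3 (edgeR adjusted p = 0.00516), a call that held whichever library was left out. Slc7a11, the cystine transporter, fell 5.03-fold (edgeR adjusted p = 0.0206), with cKO 1 at 23.58 CPM and cKO 2 and 3 at 4.36 and 6.82 CPM, and lost its call without cKO 3 or WT 1. Ddit4, an inhibitor of mTORC1, rose 1.52-fold (edgeR adjusted p = 0.00611), as did Cebpb and the low-count Stc2, which was called in 1 of the 6 fits with a library left out. Atf4 itself had a log2 fold change of -0.05 ± 0.08 and Ddit3, the factor CHOP, 0.26 ± 0.15, and neither passed. With the muscle covariate 0 genes of this list were called.

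Of 15 tested genes of the unfolded protein response in the endoplasmic reticulum, edgeR called 0. The unadjusted edgeR p was under 0.05 for 3 of the 15, against 3641 of all 14789 tested genes. Of 13 heat shock genes, Hspb1 rose 2.14-fold, from 17.3 ± 6.73 to 36.9 ± 3.39 CPM, and Cryab, a small heat shock protein that is abundant in nerve, fell 1.47-fold. Hspa1a and Hspa1b, which respond fastest to heat, had log2 fold changes of -0.24 ± 0.24 and -0.28 ± 0.23 and did not pass. Of 18 p53 targets, Btg2, Plk2 and Eda2r rose while Cdkn1a and Sesn1 fell, the median log2 fold change being 0.11. No p53 target was called higher without cKO 3, WT 1 or WT 2, and none lower without cKO 3. Eda2r kept its call in 1 and Cdkn1a in 2 of the 6 fits with a library left out. Hspb1 and Cacna2d1 were the 2 of 9 tested neuronal injury genes that rose, while Sprr1a and Gal were at or under 0.375 CPM in every library. The call of Hspb1 was lost when any cKO library or WT 1 was left out. With the muscle covariate neither was called, with log2 fold changes of 0.12 for Hspb1 and 0.24 for Cacna2d1 (edgeR adjusted p = 0.959 and 0.861). All 9 tested neuronal injury genes lay above 0, with a median log2 fold change of 0.60 against 0.02 for all tested genes.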
